A study of Mus musculus with 48 samples.

Results

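Cell cycle and proliferation genes were followed in the livers of 48 male C57BL/6J mice with diet-induced obesity. The set was chosen by gene symbol and held 31 genes, and each gene was represented by its brightest probe set among those annotated with a single symbol. Of these, 30 were measured, out of 18193 genes on the array, and Ccnb1, which encodes cyclin B1, was not matched to a probe set. The measured genes were divided by known role into 9 S-phase genes, 19 mitotic genes and 2 G1 cyclins. No filter on low values was applied, so all 30 entered the test, and the brightest probe set was above the median level of all probe sets in 13 of them.

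All mice had eaten a high-fat diet with a low protein to carbohydrate ratio (L-P/C-HF) for 10 weeks. In this diet fat gave 55% of the energy, protein 15% and carbohydrate 30%. They were the 48 most glucose intolerant of 68 mice, which had been bought at 6 to 7 weeks of age and acclimatized for 2 weeks. They then either stayed on this diet or were switched to a high-fat diet with a high protein to carbohydrate ratio (H-P/C-HF), in which 30% of energy came from protein and 15% from carbohydrate, and 12 mice of each diet were killed after 2-d and 12 after 4-wk. The mice are called low-ratio (L-P/C-HF) and high-ratio (H-P/C-HF) from here on. Whole liver RNA was hybridised to 1 array per mouse, and values are log2 signals after the authors' RMA normalisation. The hepatocyte marker Alb lay between 14.38 and 14.70 on the 47 arrays. The 4-wk mice were older, were killed on other days and had undergone a further glucose tolerance test, and these differences and the length of feeding cannot be told apart. Array B25, a high-ratio liver of the 2-d group, was left out as in the published quality control. That control also named arrays A01, A09 and A24 as potential outliers, and they were kept. The remaining 47 arrays held 11 mice of that group and 12 of each other group. B25 stood apart from its group in these genes as well, since its Ccnd1 level was 7.96 and that of Mcm3 was 7.65.

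Cells that enter division first pass the G1 restriction point under the D and E cyclins, then copy their DNA in S phase, and then separate the copies in mitosis. The Mcm genes encode the subunits of the helicase that opens DNA at replication origins, Pcna encodes the sliding clamp that holds DNA polymerase on its template, and Rrm2 and Tyms supply deoxynucleotides. The mitotic genes encode cyclins and the kinase Cdk1, spindle motors, kinetochore proteins and checkpoint kinases. Hepatocytes of an adult liver are mostly quiescent and re-enter the cycle after injury or partial hepatectomy, while resident immune and endothelial cells can also divide. Genes of S phase are commonly controlled by E2F factors, and mitotic genes by factors that bind CCAAT boxes and the cell cycle homology region, or CHR.

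The promoters of 4 genes are printed, 2 of S-phase and 2 of mitotic genes. Pcna passed the test of duration by its brightest probe set (below). Mcm3 passed only through its third-brightest probe set, tested after the values were seen, and not through its brightest. The mitotic genes Cdk1 and Top2a passed through no probe set. Each run is the 120 bases before the RefSeq start of the gene in GRCm38.p6, in the direction of transcription. Capitals mark matches on either strand to the CCAAT box (CCAAT), to the CHR (TTTGAA) or to the E2F site (TTTCGCGC, TTTGGCGC, TTTCCCGC or TTTGCCGC).
Pcna (chr2:132253181-132253300, minus strand): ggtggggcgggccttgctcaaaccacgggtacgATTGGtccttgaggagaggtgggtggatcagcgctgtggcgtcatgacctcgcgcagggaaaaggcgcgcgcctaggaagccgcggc
Mcm3 (chr1:20820313-20820432, minus strand): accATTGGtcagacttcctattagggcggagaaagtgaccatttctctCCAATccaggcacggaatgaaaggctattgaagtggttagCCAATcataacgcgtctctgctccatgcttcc
Cdk1 (chr10:69352913-69353032, minus strand): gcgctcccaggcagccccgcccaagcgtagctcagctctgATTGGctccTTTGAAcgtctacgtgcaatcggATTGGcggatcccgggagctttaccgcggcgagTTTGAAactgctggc
Top2a (chr11:99024190-99024309, minus strand): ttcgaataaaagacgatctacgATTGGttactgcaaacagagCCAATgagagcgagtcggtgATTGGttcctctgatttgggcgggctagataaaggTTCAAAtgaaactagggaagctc
The 120 bases of Pcna held 1 CCAAT box and those of Mcm3 held 3, and neither held a CHR or E2F match. Cdk1 and Top2a each held both CCAAT and CHR matches. Within the 250 bases before the start, CCAAT was found in 8 of 9 promoters of S-phase genes and in 15 of 17 of mitotic genes, against 33.9% of 32851 promoters in RefSeq. A CHR match was found in 1 of 9 S-phase and 7 of 17 mitotic promoters, against 15.99% of all. An E2F match was found in 3 of 9 S-phase and 1 of 17 mitotic promoters, against 1.86% of all. These promoters covered 8 S-phase and 16 mitotic genes, Ccnb1 among them. The matches describe the letters of these windows and no binding was measured.

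The effect of exchanging carbohydrate for protein passed the test in none of the 30 genes after 2-d. In the limma fit of the 4 groups, 8 of 18193 genes passed an adjusted p of 0.05 (0.044%), and every cell cycle gene had an adjusted p of 0.99962. None of the 30 had an unadjusted p under 0.05 in either direction, whereas 2.04% of all genes were higher and 1.62% lower at that level. Among the S-phase genes, 1 of 9 had a log2 change above 0 and the median was -0.03, and the intervals of the 9 genes lay between -0.37 and 0.28. Among the mitotic genes 10 of 19 were positive, with a median of 0.01, and their intervals lay between -0.24 and 0.41. The median over all genes was 0.01.

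After 4-wk the diet effect again passed the test in none of the 30 genes, where 0% of all genes passed (limma, adjusted p of 0.99902 for every cell cycle gene). Ccnd1 and Ccnb2 were lower in high-ratio mice at an unadjusted p under 0.05, where 2.16% of all genes were lower and 0.83% higher. Of the 19 mitotic genes 4 had a change above 0 (median -0.04), as had 7 of the 9 S-phase genes (median 0.02). The mitotic count rested in part on the low-ratio array A24, since without arrays A01, A09 and A24, of which A24 alone is from 4-wk, 9 of 19 were positive (median -0.01). Over all genes, 40.1% were positive and the median was -0.02. The difference between the diet effects, 4-wk minus 2-d, passed in none (0% of all genes). By the brightest probe set it had an unadjusted p under 0.05 in none of the 30. At that level 0.407% of all genes were higher and 1.08% lower. Among the other probe sets it did in 2 of the 39 mitotic ones, both lower. These were the second of Aurka (-0.16, limma, p = 0.0291) and the third of Tpx2 (-0.18, limma, p = 0.0407), and neither passed the adjustment. The diet effects at 2-d and 4-wk are set side by side in the plot of the 30 genes.

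**Figure D1:**
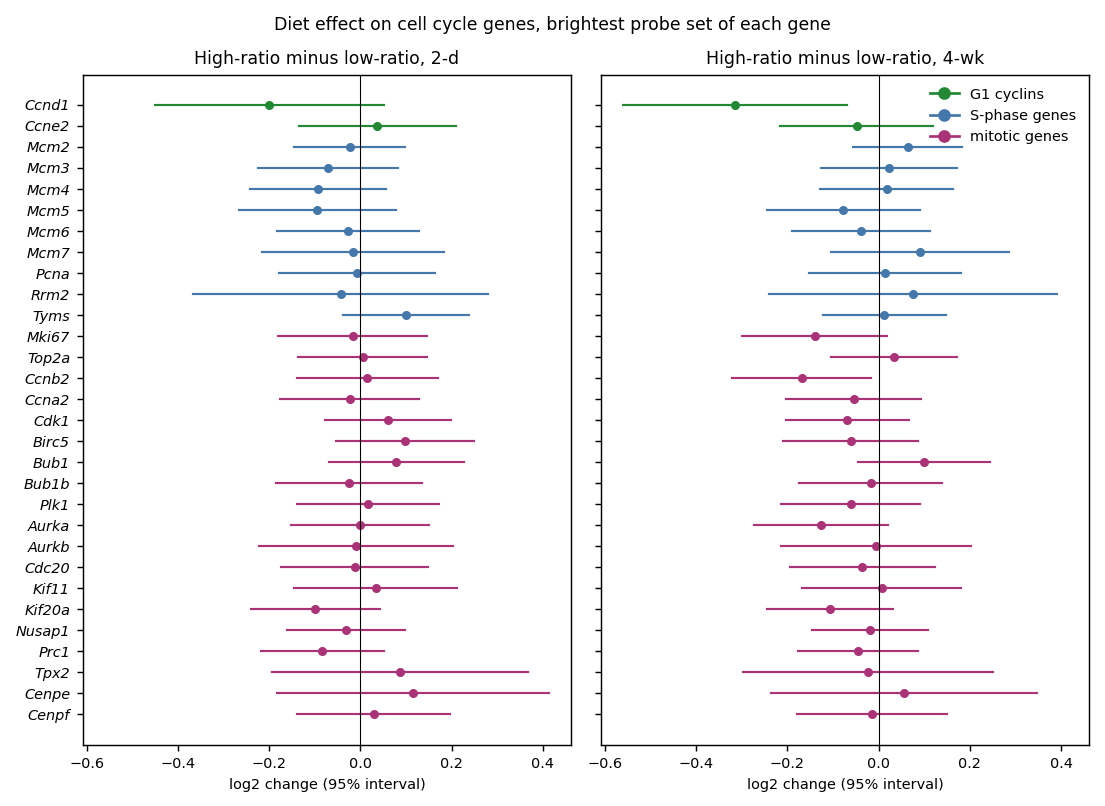
Log2 change, high-ratio minus low-ratio mice, of the brightest probe set of 30 cell cycle genes after 2-d (left, 11 and 12 mice) and 4-wk (right, 12 and 12 mice); points are estimates and lines 95% intervals from the limma fit. All intervals at 2-d cross 0, and at 4-wk those of Ccnd1 and Ccnb2 lie below 0.

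Ccnd1 encodes cyclin D1, which couples growth signals and feeding to the exit from G1. Its level in low-ratio mice after 4-wk had a lowest value of 8.34, a median of 8.88 and a highest of 9.41, and in high-ratio mice 8.31, 8.58 and 9.31. The ranges overlapped, but 11 of 12 high-ratio mice were below the low-ratio median. The means were 8.93 ± 0.34 and 8.61 ± 0.25 (SD, n = 12 each), a difference of -0.31 (SE 0.12, limma, unadjusted p = 0.0133, adjusted p = 0.99902). The study selected genes by another rule, ANOVA with Global Error Assessment at p under 0.001 without this adjustment. Its upstream regulator analysis at 4-wk listed Ccnd1 among the target molecules in the data. After 2-d the values ran from 8.21 through a median of 8.93 to 9.46 in low-ratio mice and from 8.30 through 8.76 to 9.11 in high-ratio mice, a difference of -0.20 (95% interval -0.45 to 0.05). Each of the 3 probe sets of Ccnd1 was lower in the high-ratio mice after 4-wk, by -0.31, -0.42 and -0.16, and the brightest followed the others across mice (r = 0.90 and 0.85). The Kupffer cell and macrophage markers were also lower at 4-wk, in 11 of 11 genes (median -0.33, 5 of them at an unadjusted p under 0.05 and none after adjustment), and their part in the level of Ccnd1 was not tested. In a whole liver sample fewer cells of a type and less RNA per cell cannot be told apart. Ccne2, the other G1 cyclin, differed by -0.05 after 4-wk and by 0.04 after 2-d.

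Ccnb2 encodes cyclin B2, a partner of Cdk1 at the entry into mitosis. After 4-wk it ranged from 5.41 to 6.13 with a median of 5.80 in low-ratio mice and from 5.45 to 5.79 with a median of 5.58 in high-ratio mice. The whole high-ratio group lay below the low-ratio median, within the low-ratio range. The difference was -0.17 (SE 0.08, limma, unadjusted p = 0.0293, adjusted p = 0.99902), and without arrays A01, A09 and A24 it was -0.14 and above that unadjusted level (limma, p = 0.0530). Mki67, whose product coats mitotic chromosomes and is the common marker of dividing cells, had a median of 5.39 (4.79 to 5.84) in low-ratio mice and 5.25 (5.05 to 5.51) in high-ratio mice after 4-wk. Its difference of -0.14 did not pass at the unadjusted level (limma, p = 0.0836). The levels of Mki67 after 2-d had the same median of 5.33 in both diets. Mki67, Ccnb2, Birc5, Bub1 and Kif20a all had medians under 6 in each group, below the median signal of every array (6.73 to 6.91).

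The other mitotic genes differed less than Ccnb2 and Mki67 after 4-wk, but not after 2-d, where Ccnb2 (0.02) and Mki67 (-0.02) were near 0. Top2a, the topoisomerase that untangles sister chromatids, had group medians of 6.49 (low-ratio) and 6.49 (high-ratio) after 2-d and of 6.40 and 6.42 after 4-wk. Cdk1, the kinase that drives entry into mitosis, had medians of 7.61 and 7.67 after 2-d and of 7.76 and 7.64 after 4-wk. The diet effects on the checkpoint kinases Bub1 and Bub1b, the spindle assembly factors Tpx2 and Nusap1, the motors Kif11 and Kif20a, the kinetochore proteins Cenpe and Cenpf, the kinases Plk1, Aurka and Aurkb, the passenger protein Birc5, the anaphase activator Cdc20, the midzone protein Prc1 and cyclin A2 (Ccna2) lay between -0.10 and 0.12 after 2-d and between -0.13 and 0.10 after 4-wk. Of the 39 mitotic probe sets, 2 were lower at an unadjusted p under 0.05 after 4-wk, those of Ccnb2 and a second one of Aurka (-0.14, limma, p = 0.0065). So were 1 of 27 S-phase probe sets, the third of Mcm5 (-0.19, limma, p = 0.0115), and 2 of 4 G1 cyclin probe sets, both of Ccnd1. None was higher at that level, and the share of all probe sets at that level was not counted. No probe set of any of the 30 genes passed the adjustment over 45037 probe sets in either diet comparison, where 0.0133% passed after 2-d and 0% after 4-wk.

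From 2-d to 4-wk Pcna rose in both diets and was the one gene of the 30 that passed, while none of the 19 mitotic genes and neither G1 cyclin did. Over all genes 5.61% passed in low-ratio mice and 5.75% in high-ratio mice, so 1 of 30 was below the share of all genes. At an unadjusted p under 0.05, 10.6% of all genes were higher and 5.22% lower in low-ratio mice, and among the 30 genes Pcna and Cdk1 were higher. In high-ratio mice, 9.75% were higher and 7.75% lower, and among the 30 genes Pcna, Mcm3 and Mcm4 were higher. Of the 9 S-phase genes 6 had a positive change in each diet, with medians of 0.02 and 0.13. Of the 19 mitotic genes, 11 were positive in low-ratio mice (median 0.02) and 5 in high-ratio mice (median -0.06). Without arrays A01, A09 and A24, all low-ratio, the first count was 6 of 19 and its median turned to -0.05, so the unequal counts of the diets rested on those arrays. The median over all genes was 0.01 in low-ratio mice and -0.02 in high-ratio mice. The difference between the classes was not tested.

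In low-ratio mice, Pcna had a lowest value of 9.65, a median of 10.22 and a highest of 10.43 after 2-d, and 10.13, 10.54 and 10.63 after 4-wk. In high-ratio mice it ran from 9.85 through 10.07 to 10.36 after 2-d and from 10.08 through 10.51 to 10.97 after 4-wk. The ranges overlapped, although 11 of 12 low-ratio mice and 12 of 12 high-ratio mice at 4-wk lay above the 2-d median of their diet. The log2 change was 0.35 (SE 0.08, limma, adjusted p = 0.00432) in low-ratio mice and 0.38 (SE 0.09, adjusted p = 0.00293) in high-ratio mice. Between the diets Pcna differed by -0.01 after 2-d and by 0.01 after 4-wk, and the difference of the diet effects was 0.02 (95% interval -0.22 to 0.26).

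The RNA quality of the arrays moved with the length of feeding. The excess of 3' over 5' signal in the control probe sets, which grows as RNA is degraded, was 0.478 ± 0.187 (SD, n = 12) and 0.477 ± 0.125 (n = 11) after 2-d in low-ratio and high-ratio mice, and 0.244 ± 0.065 and 0.273 ± 0.108 (n = 12 each) after 4-wk. With this measure as a covariate, the change of Pcna was 0.11 (limma, adjusted p = 0.844) in low-ratio mice and 0.17 (adjusted p = 0.432) in high-ratio mice, so that the call was lost in both. Calls over all genes also fell, from 812 higher and 208 lower to 229 and 66 in low-ratio mice. In high-ratio mice they fell from 729 and 318 to 247 and 131. Markers of nonparenchymal cells rose as well. At an adjusted p under 0.05 (limma), 5.61% of all genes passed in low-ratio mice and 5.75% in high-ratio mice. All 11 Kupffer cell and macrophage genes passed as higher in low-ratio mice and 9 of 11 in high-ratio mice (medians 1.11 and 0.91), where all 11 were positive. So did 5 of 6 sinusoidal endothelial genes and 4 of 6 stellate cell genes in each diet. Of 10 lymphocyte genes, 1 passed in low-ratio mice and none in high-ratio mice, while 8 and 6 were positive. The mean level of the Kupffer list ranged from -0.90 to 0.28 after 2-d and from -0.07 to 1.41 after 4-wk in low-ratio mice, as the mean deviation of its genes from their overall means, and from -0.88 to -0.02 and from -0.76 to 0.80 in high-ratio mice. Of 7 hepatocyte markers 1, Hnf4a, passed at the adjusted level in each diet, as lower. The part of RNA quality and of these cells in the level of Pcna was not tested beyond the covariate.

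Single probe sets gave a wider picture of the S-phase genes than the brightest ones. When each of the 70 probe sets of the 30 genes was tested singly, a choice made after the values were seen, 3 of 27 S-phase probe sets rose in each diet and none of the 39 mitotic or 4 G1 cyclin probe sets did. In the whole table, 6.87% of probe sets passed in low-ratio mice and 6.69% in high-ratio mice. Pcna, with a single probe set, rose in both diets, and so did Mcm3 through the third brightest of its 5 probe sets. Rrm2 rose in low-ratio mice through the second brightest of its 3 probe sets, and Mcm7 rose in high-ratio mice through the third brightest of its 4 probe sets. These probe sets are set beside the rest in the plot of the S-phase probe sets.

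**Figure D2:**
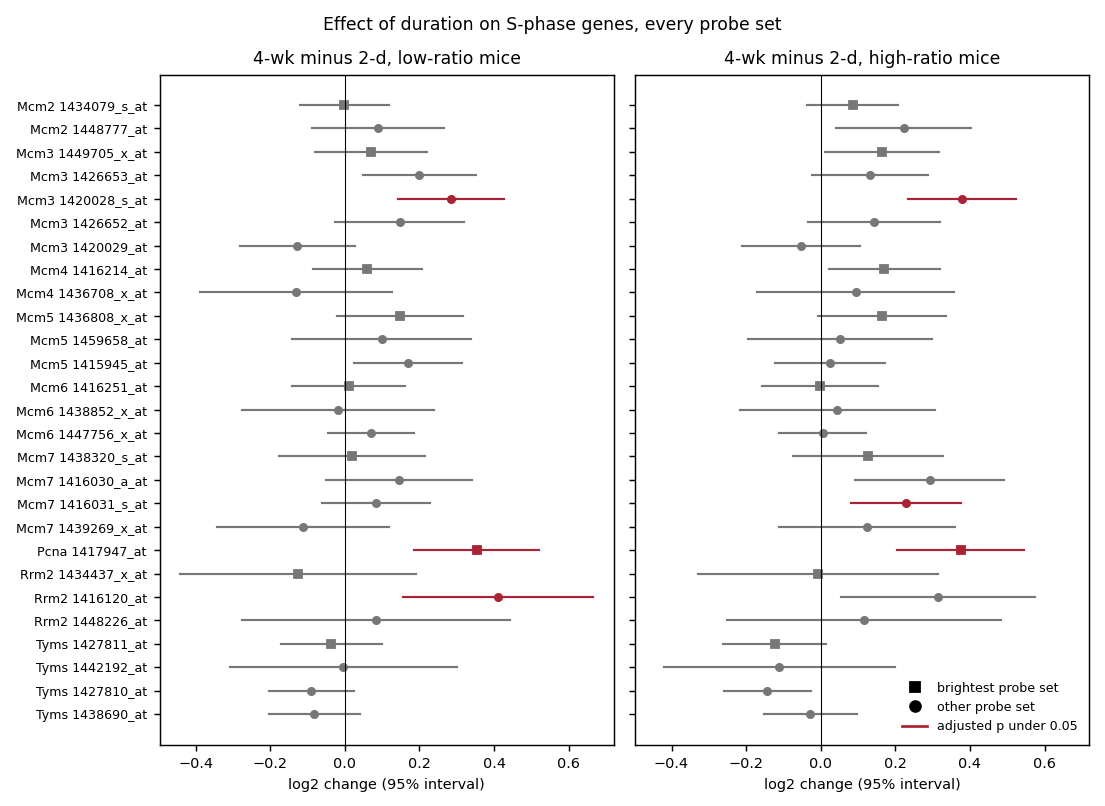
Log2 change, 4-wk minus 2-d, of each of 27 probe sets of 9 S-phase genes in low-ratio mice (left) and high-ratio mice (right); probe sets of a gene are in order of brightness, squares mark the brightest, lines are 95% intervals, and red marks an adjusted p under 0.05 over 45037 probe sets. In each diet 3 probe sets are red, Pcna and the third probe set of Mcm3 among them in both. The other probe sets of Mcm3 and Rrm2 lie nearer 0, while the second of Mcm7, with a wider interval, lies farther from 0 than the third.

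The third-brightest probe set of Mcm3 ran from 5.71 to 6.02 with a median of 5.98 in high-ratio mice after 2-d and from 6.04 to 6.52 with a median of 6.34 after 4-wk. These groups did not overlap, which was seen in no other probe set of the 30 genes in any diet or duration comparison. The share of all probe sets without overlap was not counted, so this describes the 30 genes alone. The change was 0.38 (limma, adjusted p = 3.70e-04 over all probe sets), and with the RNA quality covariate it was 0.37 (adjusted p = 0.0099). In low-ratio mice the values ran from 5.72 through a median of 6.12 to 6.42 after 2-d and from 6.00 through 6.40 to 6.68 after 4-wk, with overlapping ranges. The change there was 0.28 (limma, adjusted p = 0.00647), and 0.27 (adjusted p = 0.159) with the covariate. On array B25, which was left out, this probe set read 6.57, above every other high-ratio mouse of both durations. The high-ratio groups therefore overlap when B25 is included. With B25 included the change in high-ratio mice was 0.33 (adjusted p = 0.00413). Between the diets this probe set was lower in high-ratio mice after 2-d (-0.16, limma, unadjusted p = 0.0338, adjusted p = 0.99984), where all 11 lay below the low-ratio median, and these mice also enter the duration comparison. Without arrays A01, A09 and A24 that difference was -0.14 (unadjusted p = 0.0833 in the limma fit). The brightest probe set of Mcm3 changed by 0.07 and 0.16 and did not pass, and its level did not follow that of the third closely across mice (r = 0.23). In low-ratio and high-ratio mice the second changed by 0.20 and 0.13 and the fourth by 0.15 and 0.14. The fifth went the other way (-0.13 and -0.05), and none of these passed.

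The second-brightest probe set of Rrm2, the gene for the small subunit of ribonucleotide reductase, had a median of 7.42 (6.64 to 7.83) after 2-d and 7.71 (7.07 to 8.18) after 4-wk in low-ratio mice. In high-ratio mice the medians were 7.43 (6.74 to 7.98) and 7.69 (7.02 to 8.09). The groups overlapped in both diets. The change was 0.41 (limma, adjusted p = 0.0351) in low-ratio mice and 0.32 (adjusted p = 0.150) in high-ratio mice, and in low-ratio mice it was 0.31 (adjusted p = 0.188) without arrays A01, A09 and A24 and 0.10 (adjusted p = 0.979) with the RNA quality covariate. The brightest probe set of Rrm2 changed by -0.13 and -0.01, although it followed the second across mice of a group (r = 0.62). It had a wide spread after 2-d, from 6.90 to 9.29 in low-ratio mice and from 7.58 to 9.0 in high-ratio mice, and a narrower one after 4-wk, from 7.98 to 8.75 and from 7.99 to 8.94.

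The third-brightest probe set of Mcm7 had a median of 7.75 (7.56 to 8.02) after 2-d and 7.99 (7.58 to 8.26) after 4-wk in high-ratio mice, and 11 of the 12 later mice lay above the earlier median. The change was 0.23 (limma, adjusted p = 0.0470), and the adjusted p was 0.0635 with B25 included and 0.255 with the RNA quality covariate. The second-brightest probe set of Mcm7 changed by 0.29 in the same mice and did not pass (limma, adjusted p = 0.0665). In low-ratio mice the third changed by 0.08 (adjusted p = 0.639). Mcm6, another helicase subunit, had group medians of 6.69 and 6.62 after 2-d and of 6.60 and 6.54 after 4-wk in low-ratio and high-ratio mice, and its change with duration was 0.01 and 0.00. The brightest probe sets of Mcm2, Mcm4 and Mcm5 changed by 0.00, 0.06 and 0.15 in low-ratio mice and by 0.09, 0.17 and 0.16 in high-ratio mice. Tyms, thymidylate synthase, changed by -0.04 and -0.12. Cdk1, among the mitotic genes, had medians of 7.61 (7.34 to 7.84) after 2-d and 7.76 (7.40 to 7.99) after 4-wk in low-ratio mice, a change of 0.14 (limma, adjusted p = 0.276), and a change of 0.01 in high-ratio mice. Top2a changed by -0.11 and -0.08 (limma, adjusted p = 0.474 and 0.596).

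**Figure D3:**
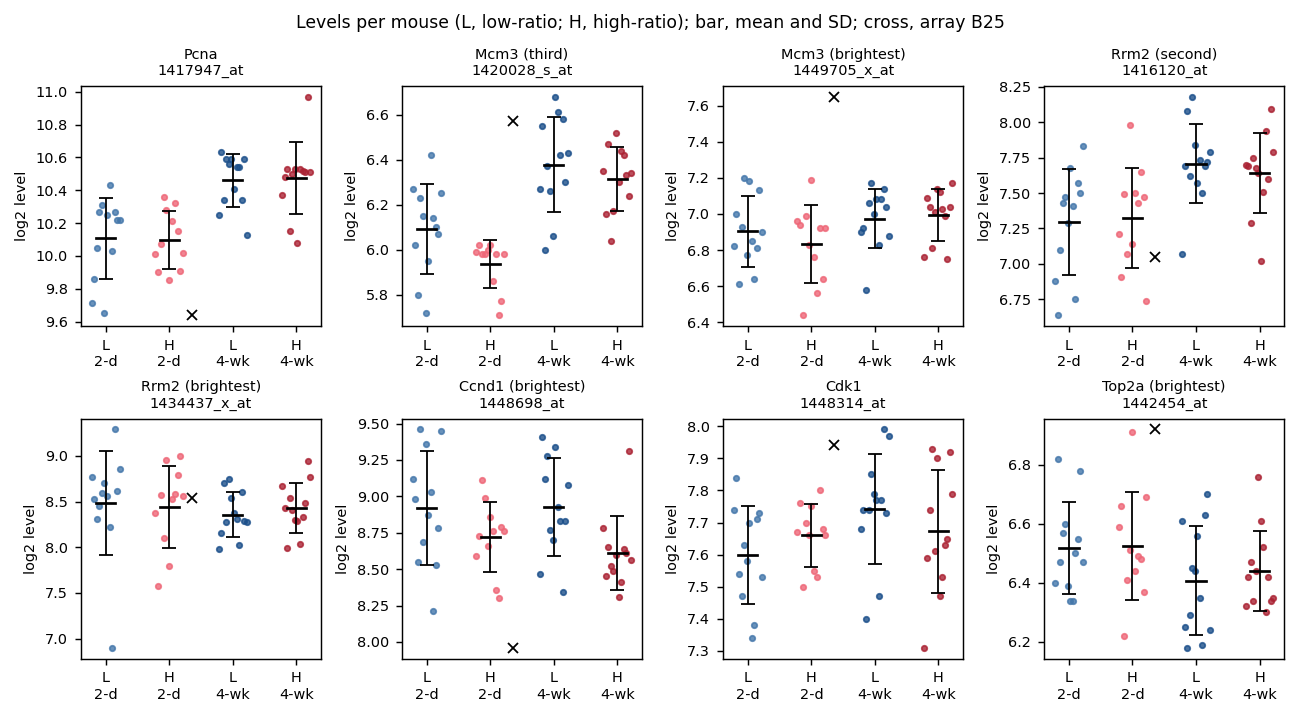
Log2 level per mouse of 8 probe sets in the 4 groups (L, low-ratio; H, high-ratio), with the mean and SD as bars and array B25, which was left out, as a cross; each panel has its own axis, which does not start at 0. Pcna lies higher in both 4-wk groups, and Cdk1 and Top2a overlap in all groups. The third probe set of Mcm3 in high-ratio mice has no overlap between durations when B25 is left out, and overlaps with it.

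Other genes of the cycle were taken from lists chosen by role, and their calls for duration stand against 5.61% of all genes in low-ratio mice and 5.75% in high-ratio mice. Of 31 measured genes of replication and E2F activity, none passed the test for diet and none passed for duration in low-ratio mice. In high-ratio mice Rpa2 (0.45), a subunit of the single-strand DNA binding complex, Rfc3 (0.36), a clamp loader subunit, and Rrm1 (0.30), the large subunit of ribonucleotide reductase, rose, and Gins1 (-0.30), a part of the replicative helicase, fell, which made 12.9% of the list. With the RNA quality covariate Gins1 kept its call and the other three did not. Of 38 further mitotic genes, Spc25, a kinetochore subunit, rose in both diets (0.37 and 0.49), and its call in low-ratio mice was lost with the covariate or without arrays A01, A09 and A24. The remaining 37 did not pass, and the share called was 2.63% in each diet. The lists had medians of 0.03 and 0.02 (replication) and of 0.02 and -0.04 (further mitotic) in low-ratio and high-ratio mice.

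Of 31 genes of G1 control and cell cycle inhibition, 5 changed with duration in low-ratio mice (16.1%) and 4 in high-ratio mice (12.9%), with the same shares of all genes as background. Hgf, a growth factor for hepatocytes made by stellate and endothelial cells, rose by 0.82 and 0.68, and Ccnd2, cyclin D2, by 0.28 in both diets. Egfr, the receptor for epidermal growth factor, had a change of -0.97 and -0.90 and fell in both diets. Btg2, an antiproliferative gene, fell as well (-0.52 and -0.56), and E2f8, a repressor of the E2F family, fell in low-ratio mice (-0.51). With the RNA quality covariate the calls of Hgf and Egfr held in both diets and that of Btg2 in high-ratio mice, and those of Ccnd2 and E2f8 did not. In these lists no gene passed in the diet comparisons, and the smallest unadjusted p-values were those of Tk1, thymidine kinase, after 2-d (0.46, limma, p = 8.51e-04, adjusted p = 0.443) and of Cdt1, a licensing factor, after 4-wk (0.26, p = 0.00201, adjusted p = 0.99902).

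Some single mice had the highest values of their group for many genes of a class. For each mouse the mean deviation of the class from the overall means of its genes was taken, as a description with no test. The mitotic mean was highest on array A24, the 12th low-ratio 4-wk mouse, at 0.37, where 11 of 19 mitotic genes had their highest value of the group, Ccna2, Ccnb2, Aurkb, Kif11 and Tpx2 among them. The S-phase mean of this mouse was 0.04. The lymphocyte markers (10 measured) were also highest there, at 0.52 against a group median of 0.06. The neutrophil, erythroid and cholangiocyte markers had their highest value of the group. The median signal of this array, 6.91, was the highest of all arrays. A24 was among the potential outliers of the published quality control. It had the lowest weight (0.327) of the arrays in the fit with array weights. On array B40, a high-ratio 4-wk liver, 12 of 19 mitotic genes had the highest value of the group, with a mitotic mean of 0.20 and an S-phase mean of -0.04. The lymphocyte markers stood at 0.11 and the array median at 6.85 in this mouse, and the cholangiocyte markers were highest of the group (0.13). On array B47, of the same group, the reverse was seen, with the highest S-phase mean of all mice (0.25), the highest value of the group for Pcna, Mcm4, Mcm6 and Rrm2, and a mitotic mean of -0.14. The sinusoidal endothelial markers were also highest of the group on B47 (0.64). The shares of all genes with their highest value on A24, B40 or B47 were not counted. The part of these cell markers or of the array median in these levels was not tested.

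**Figure D4:**
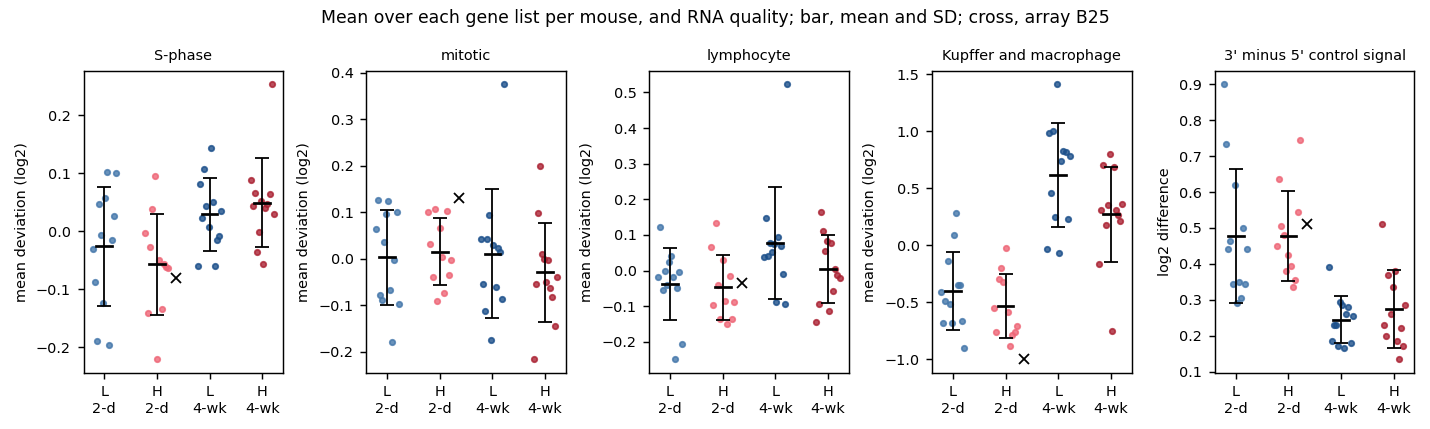
Mean deviation per mouse (log2) of the S-phase, mitotic, lymphocyte and Kupffer cell lists, and the 3' minus 5' control signal, in the 4 groups (L, low-ratio; H, high-ratio), with mean and SD as bars and array B25 as a cross. One low-ratio 4-wk mouse (A24) is highest in both the mitotic (0.37) and the lymphocyte list (0.52), and the Kupffer list is higher and the control signal lower after 4-wk.

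Between mice of one group, mitotic genes varied together more than S-phase genes did, as a description over pairs that share arrays. Over 47 mice and after removal of the group means, the median r was 0.222 in 171 pairs of mitotic genes, of which 81.9% were positive. It was 0.067 in 36 pairs of S-phase genes, 0.032 in 171 pairs across the classes and 0.037 in all pairs of genes on the array. Arrays A24 and B40 held the highest value of their group for 11 and 12 of the 19 mitotic genes. These medians were not taken without those arrays, so their part in the difference between the classes was not tested. Over all gene pairs the 10th percentile was -0.433 and the 90th percentile 0.499. The highest values among the 30 genes, picked after they were seen, were those of Tpx2 with Cenpf (0.756), Kif11 (0.714) and Aurkb (0.712) and of Aurkb with Cenpf (0.747), all mitotic. The lowest lay across the classes, for Mcm7 with Tpx2 (-0.700) and Bub1 (-0.641), Mcm4 with Cenpe (-0.610), Mcm7 with Cenpf (-0.592) and Pcna with Bub1 (-0.591). These values belong to the brightest probe sets, which did not all follow the others of their gene. Their r with the others was 0.96, 0.40 and 0.17 for Tpx2, 0.39 and 0.74 for Cenpf, and 0.21 and 0.57 for Kif11. It was 0.24 for Aurkb, 0.21 for Cenpe, 0.02 for Bub1, 0.63 for Mcm4 and from 0.61 to 0.67 for Mcm7.

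**Figure D5:**
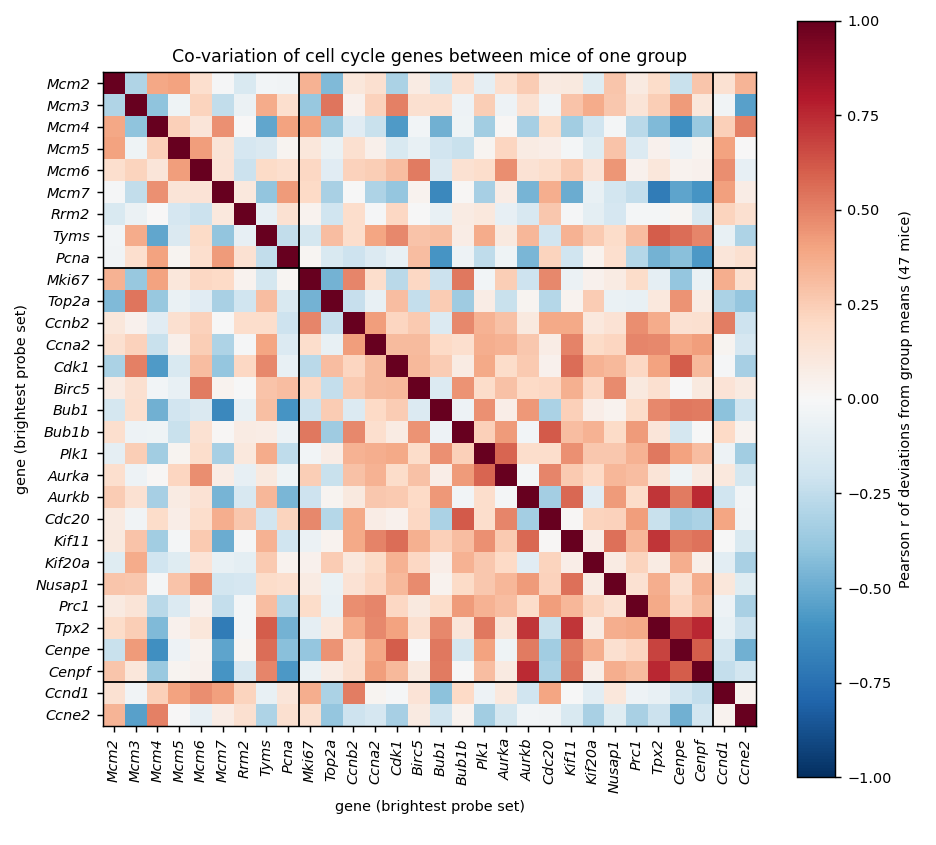
Pearson r between the brightest probe sets of 30 cell cycle genes over 47 mice, as deviations from group means; black lines separate S-phase, mitotic and G1 genes, and red is positive and blue negative. The mitotic block is mostly red (81.9% of pairs), and the S-phase block is mixed.

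Of 10 gene pairs that were tested by permutation within groups, 4 passed by both r and rho. Ccnd1 followed Mcm6 (r = 0.46, rho = 0.45, adjusted p = 0.00825 and 0.0109), with r = 0.47 when the 2 mice farthest in Ccnd1 were left out. Mcm5 followed Mcm6 (r = 0.42, rho = 0.47, adjusted p = 0.0141 and 0.0109, and r = 0.38 without the 2 farthest mice). Top2a ran against Mki67 (r = -0.47, rho = -0.38, adjusted p = 0.00825 and 0.0258, and r = -0.41 without the 2 farthest mice) and against the macrophage marker Adgre1 (r = -0.38, rho = -0.41, adjusted p = 0.0311 and 0.0190, and r = -0.52 without them). Top2a and Ccnd1 passed by rho (-0.42, permutation, adjusted p = 0.0190) and not by r (-0.31, adjusted p = 0.0628). Top2a and Cdk1 had r = 0.31 (permutation, adjusted p = 0.0628), which passed with B25 included (0.36, adjusted p = 0.0207) and without arrays A01, A09 and A24 (0.38, adjusted p = 0.0236). Unadjusted permutation p-values of the 4 pairs were 0.00141, 0.00423, 0.00165 and 0.0124 for r.

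Probe sets of one gene did not always follow each other, and the Top2a pairs rest on that choice. The brightest probe set of Top2a had r = 0.05 and -0.07 with the others for the same gene. With the mean of all probe sets of each gene, Top2a had r = 0.58 with Cdk1 (permutation, adjusted p = 0.0012) and -0.24 with Mki67 (adjusted p = 0.270). The pair of Mcm5 and Mcm6 turned from 0.42 to -0.07 with the mean of all probe sets, and the pair of Ccnd1 and Mcm6 no longer passed (r = 0.33, permutation, adjusted p = 0.182). Over the 22 genes with more than 1 probe set, the brightest was set against each other probe set in 40 pairs, of which 20 were positively correlated at an adjusted p under 0.05 (permutation) and 5 had a negative r.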

How the data were processed

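The levels of RNA in 48 livers were measured by Affymetrix mouse arrays, 1 per mouse. The deposited values are log2 signals made by the authors with RMA (background correction, normalization between arrays, 1 value per probe set); the log base was read from their range. The medians of the arrays ran from 6.73 to 6.91, and precision is limited by the number of mice. All 45037 probe sets other than 64 controls were fitted with limma 3.58.1 in R 4.3.3 (1 coefficient per group, eBayes with a trend, two-sided). Benjamini-Hochberg adjustment ran over the brightest single-symbol probe set of 18193 genes, at 0.05. Probe sets with several symbols (932) or none (9160) were not named. The study used one-way ANOVA with Global Error Assessment, whose software was not used here. Groups followed the labels, and array B25 was left out. H-P/C-HF stands for the label with high protein. Every gene of the set is named. Members, classes and lists were chosen with earlier results of these data known. Gene pairs were tested with 100000 permutations within groups, two-sided, and adjusted over 10 pairs. Replicate numbers did not pair the mice (median r -0.02 over 69 same-number pairs). In simulated data for the diet effect at 4-wk on 18193 genes, shifts of 0.25, 0.5 and 1 log2 unit were recovered in 38%, 92% and 100%. There 50 genes were shifted at each of these sizes and 50 by 2 units, with noise drawn independently for each gene. That made 171 calls, against 0 in the real comparison, which eases the adjusted cutoff. The recovery of a few shifted genes alone was not simulated and would be lower. Alternatives were B25 included, 3 arrays more left out, array weights, other scalings and fits, the RNA quality covariate and other probe set rules.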

Additional observations from a re-analysis of the deposited data

How the results depend on the processing

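The count of changed genes among the 30 was 0 for the diet effect at 2-d, at 4-wk and for their difference under every setting tried, ordinary ANOVA, cyclic loess, median centring and B25 included among them. For duration it was 1 (Pcna) in each diet, and the exceptions were the RNA quality covariate with 0 in each diet, the mean of all probe sets with 2 in each diet (Mcm3 and Pcna), array weights with 2 in H-P/C-HF mice (Mcm3 and Pcna), and any probe set of a gene, chosen after the values were seen, with 3 in each diet. RNA quality and duration moved together. With the replicate block the count stayed at 1 in each diet (Pcna, 0.35 and 0.40, limma, adjusted p = 0.00373 and 0.00138), and no other of the 30 genes was called with the replicate block. The medians of the classes were within a few hundredths of 0 in most comparisons, and some changed sign. Without arrays A01, A09 and A24 the mitotic median turned from 0.01 to -0.01 for diet at 2-d and from 0.02 to -0.05 for duration in L-P/C-HF mice, and for the difference of diet effects from -0.03 to 0.02. Median centring and cyclic loess turned the mitotic median for diet at 2-d as well (-0.0049 and -0.0104), median centring that for duration in L-P/C-HF mice (-0.0033), and cyclic loess the S-phase median for duration in these mice (0.02 to -0.0021). Over all genes, the calls for diet at 2-d numbered 8 and were 4 with the replicate block, whose calls were not counted in the other lists. The correlation of Mcm5 with Mcm6 reversed to -0.0703 with the mean of all probe sets, and that of Top2a with Adgre1 did not pass with that mean or with cyclic loess (-0.15 and -0.33, permutation, adjusted p = 0.578 and 0.101). Leaving out 1 mouse at a time was not run, since groups held 11 or 12. Signal over background limits the genes whose level lies below the array medians, Mki67, Ccnb2, Birc5, Bub1 and Kif20a among them.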
